A study of Mus musculus with 22 samples.

Results

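The genes described here encode histone demethylases of the JmjC family, and 10 of the 18487 genes in the expression table were chosen by name: Kdm2a, Kdm2b, Kdm3a, Kdm3b, Kdm4a, Kdm4b, Kdm4c, Kdm5a, Kdm5b and Kdm6b. All 10 were among the 17275 genes that reached 10 normalized reads in 2 or more libraries and were tested. RNA was measured by poly(A)-selected RNA-seq in 22 libraries of E14, an established line of mouse embryonic stem cells (ESCs). There were 11 groups of 2 libraries, one labelled NC and the others each labelled with 1 of 10 compounds. The labels give no dose, time, solvent or genetic change for any group, do not spell out NC, and do not say whether the 2 libraries of a group came from separate cultures, so the p-values measure only the spread between libraries, which may be technical.

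The compounds act on different classes of chromatin regulator. Bromosporine blocks bromodomains and Valproate histone deacetylases, whereas acetyltransferases are the targets of CPTH2 and Garcinol. Chaetocin inhibits lysine methyltransferases, UNC0379 the H4K20 methyltransferase SETD8 and MS023 type I arginine methyltransferases, while DZNep blocks S-adenosylhomocysteine hydrolase and so hampers many methylation reactions. IOX1 is a broad inhibitor of 2-oxoglutarate oxygenases, the enzyme class to which the JmjC demethylases belong. The group labelled OICR carries no fuller compound name in the labels.

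JmjC demethylases remove methyl groups from histone lysines by oxidation, using iron, oxygen and 2-oxoglutarate and releasing succinate and formaldehyde. The KDM2 enzymes act on methylated H3K36, the KDM3 enzymes on the lower methylation states of H3K9, the KDM4 enzymes on the higher states of H3K9 and H3K36, the KDM5 enzymes on H3K4, and KDM6B on H3K27. In ESCs, KDM2B brings a variant Polycomb complex, PRC1.1, to unmethylated CpG islands, KDM3A and KDM4C are known for their part in keeping up self-renewal, and KDM5B is abundant. These enzymes are regulated by transcript level and also by their cofactors, and RNA-seq sees only the former.

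Promoter sequences are shown for Kdm2b, the member that rose with 2 compounds, and for Kdm4c, which fell with the same 2. CpG dinucleotides are capitalised, since the CXXC zinc finger of KDM2 proteins binds unmethylated CpG. The windows hold 250 bases before and 50 bases after an annotated start, read 5′ to 3′ on the strand of the gene, and come from RefSeq on GRCm38.p6. The table holds 4 windows for Kdm2b and 2 for Kdm4c. Shown are the Kdm2b window farthest upstream, at chr5:122989050-122989349 (minus strand), the one inside Kdm2b with the most CpGs, at chr5:122900301-122900600 (minus strand), and the Kdm4c window with more CpGs, at chr4:74251629-74251928 (plus strand).
Kdm2b, upstream start: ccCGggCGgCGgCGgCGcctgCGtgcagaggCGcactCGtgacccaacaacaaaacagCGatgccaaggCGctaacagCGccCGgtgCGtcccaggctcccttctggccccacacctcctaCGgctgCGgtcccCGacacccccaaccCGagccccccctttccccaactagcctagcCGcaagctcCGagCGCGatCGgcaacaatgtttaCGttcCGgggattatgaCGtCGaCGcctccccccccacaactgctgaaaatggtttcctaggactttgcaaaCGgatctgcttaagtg
Kdm2b, internal start: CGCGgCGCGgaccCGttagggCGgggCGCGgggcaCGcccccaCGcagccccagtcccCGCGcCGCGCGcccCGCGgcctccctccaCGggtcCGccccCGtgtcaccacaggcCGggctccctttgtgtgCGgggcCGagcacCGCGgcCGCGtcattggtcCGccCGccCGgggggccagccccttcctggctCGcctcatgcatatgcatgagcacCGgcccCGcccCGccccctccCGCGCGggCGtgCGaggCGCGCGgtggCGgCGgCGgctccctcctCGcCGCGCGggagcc
Kdm4c: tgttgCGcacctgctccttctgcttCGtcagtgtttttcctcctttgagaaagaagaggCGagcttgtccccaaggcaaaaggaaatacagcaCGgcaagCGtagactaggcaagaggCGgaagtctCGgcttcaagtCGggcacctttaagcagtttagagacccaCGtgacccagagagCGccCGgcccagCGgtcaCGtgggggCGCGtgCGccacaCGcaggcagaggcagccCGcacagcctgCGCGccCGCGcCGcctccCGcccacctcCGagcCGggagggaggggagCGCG
The upstream Kdm2b window and the Kdm4c window shown each hold 28 CpGs, a number reached by 14.2% of the 32851 mouse promoter windows of the same length. The internal Kdm2b window holds 49 CpGs, reached by 1.02% of them. The 2 Kdm2b windows not shown hold 47 CpGs (chr5:122900318-122900617) and 18 CpGs (chr5:122988458-122988757), the latter reached by 29.7% of windows. The other Kdm4c window, at the outermost annotated start of the gene (chr4:74242247-74242546), holds 0 CpGs and no hypoxia core letters, so Kdm4c has both a CpG-rich and a CpG-free start in this table. The median was 24 CpGs over the 11 windows listed for 5 of the members and 7 over all windows. Kdm3a, Kdm4a and Kdm5b also had windows in that table. The core letters of the hypoxia-response element, ACGTG or GCGTG on either strand, were in 7 of the 11 member windows and in 43.8% of all windows. This is a description of letters, not of binding. The 11 windows are not all separate, since the Kdm2b windows with 47 and 49 CpGs overlap, and so do windows of Kdm3a. Shared bases thus count more than once in the median and in the 7, which include all 4 Kdm2b windows.

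Read values are deposited after full-quantile normalization, which forced the same median (409) and the same maximum (221616) on all libraries. They are called normalized reads below, and per-library sequencing depth cannot be read from them. The 10 members spanned a wide range of levels. Divided by the length of the longest annotated transcript, Kdm5b stood highest in NC with a mean of 3381 normalized reads per kilobase, followed by Kdm3a with 2453, Kdm3b with 1781 and Kdm4c with 1614. Kdm4a (813), Kdm6b (735), Kdm2b (506) and Kdm2a (439) formed the middle, and Kdm5a (296) and Kdm4b (276) were lowest. The libraries of a group do not keep neighbours in this order apart throughout: over all 22 libraries the per-kilobase ranges of Kdm5b (1720 to 7768) and Kdm3a (1037 to 3707) overlapped, as did those of Kdm5a (195 to 374) and Kdm4b (131 to 417).

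**Figure D1:**
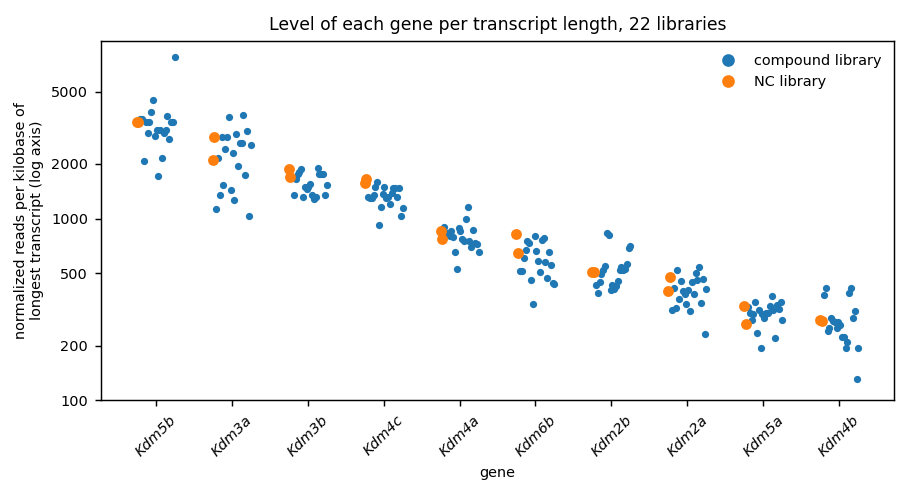
Normalized reads per kilobase of the longest annotated transcript (log axis) for each of the 10 genes, with 1 point per library and the 2 NC libraries in orange. In NC, Kdm5b stood highest (mean 3381) and Kdm4b lowest (mean 276).

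Differences from NC were tested for each compound with limma on log2(value + 1), with Benjamini-Hochberg adjustment over all 17275 genes, and a gene passed at an adjusted p under 0.05. Of the 100 pairs of a member and a compound, 10 passed, against 4.23% of all pairs of a gene and a compound. The 10 were 3 rises and 7 falls, and in this model they came from 3 compounds, DZNep, Valproate and Bromosporine. With the replicate number added to the model 21 pairs passed, and MS023, OICR and IOX1 were then among the compounds. The share of all genes in that model was not computed, so the 21 cannot be set against 4.23%. None of the 10 reached a fold change over 2, whereas 2.15% of all pairs of a gene and a compound passed with a fold over 2. By compound, 5 members passed with DZNep (23.6% of all genes), 4 with Valproate (10.3%) and 1 with Bromosporine (5.4%). In limma 0 members passed with the other 7 compounds, where few genes did: 2.21% of genes passed with MS023, 0.637% with OICR, 0.127% with IOX1, 0.0174% with Chaetocin, 0.00579% with CPTH2, 0.00579% with Garcinol and 0% with UNC0379. At an unadjusted p under 0.05, the members numbered 5 with IOX1 (12.4% of all genes), 4 with MS023 (15%), 2 with OICR (10.7%), 2 with Garcinol (3.62%), 1 with Chaetocin (4.72%), 0 with CPTH2 (0.944%) and 0 with UNC0379 (6.08%). In 37 of the 100 pairs both compound libraries lay below both NC libraries, against 21.3% over all genes, and in 12 they lay above them, against 19.4%. All of these comparisons share the 2 NC libraries, so they are not independent of each other. When only the libraries of a compound and NC were fitted, 0 of the 10 pairs passed (limma adjusted p from 0.0803 to 0.255). With adjustment over all 10 contrasts together, 7 passed, and Kdm4b with Bromosporine (adjusted p = 0.0659), Kdm3b with DZNep (adjusted p = 0.16) and Kdm4a with DZNep (adjusted p = 0.0552) did not.

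**Figure D2:**
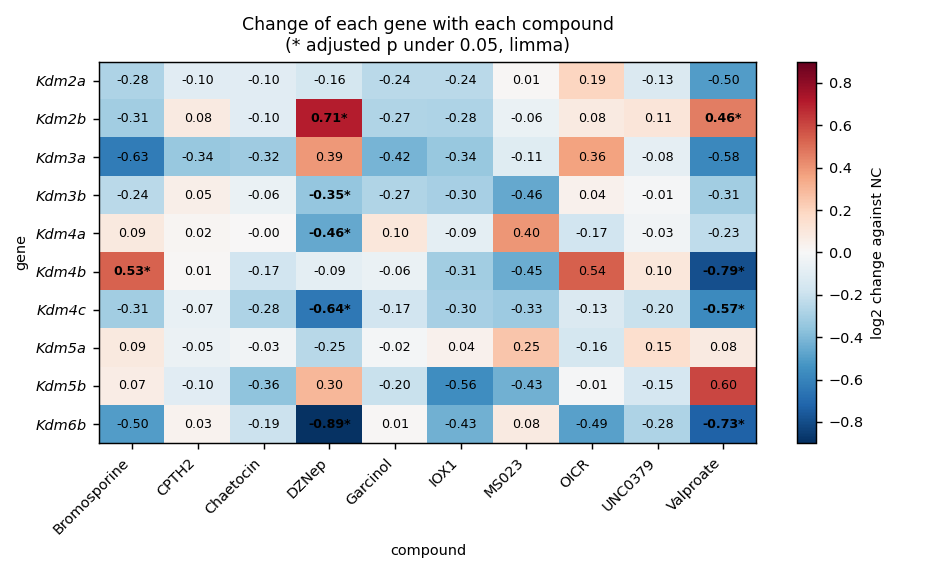
Log2 change against NC of each of the 10 genes (rows) with each compound (columns), printed in the cells and coloured from blue (lower) to red (higher), with an asterisk where limma's adjusted p was under 0.05. The 10 asterisks fall in the columns of Bromosporine, DZNep and Valproate, and the changes marked range from -0.89 to 0.71.

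A moderated F test asked whether a member differed between any of the 11 groups, and 6 of the 10 passed it (Kdm2b, Kdm3b, Kdm4a, Kdm4b, Kdm4c and Kdm6b), against 29.7% of all genes. Adjusted p-values of limma's F test ran from 8.23e-05 for Kdm2b to 0.0216 for Kdm3b. Kdm2a, Kdm3a, Kdm5a and Kdm5b did not pass, at 0.744, 0.697, 0.761 and 0.271. Compared directly, 2 groups at a time over the 55 pairs of groups, 7.59% of all tests passed, and the members passed in very different numbers of pairs. Kdm2b passed in 21 pairs, Kdm4b in 19, Kdm6b in 13, Kdm4c in 12, Kdm4a in 11, Kdm3b in 5 and Kdm5b in 1, and Kdm2a, Kdm3a and Kdm5a in 0. These direct comparisons were chosen after seeing the data.

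**Figure D3:**
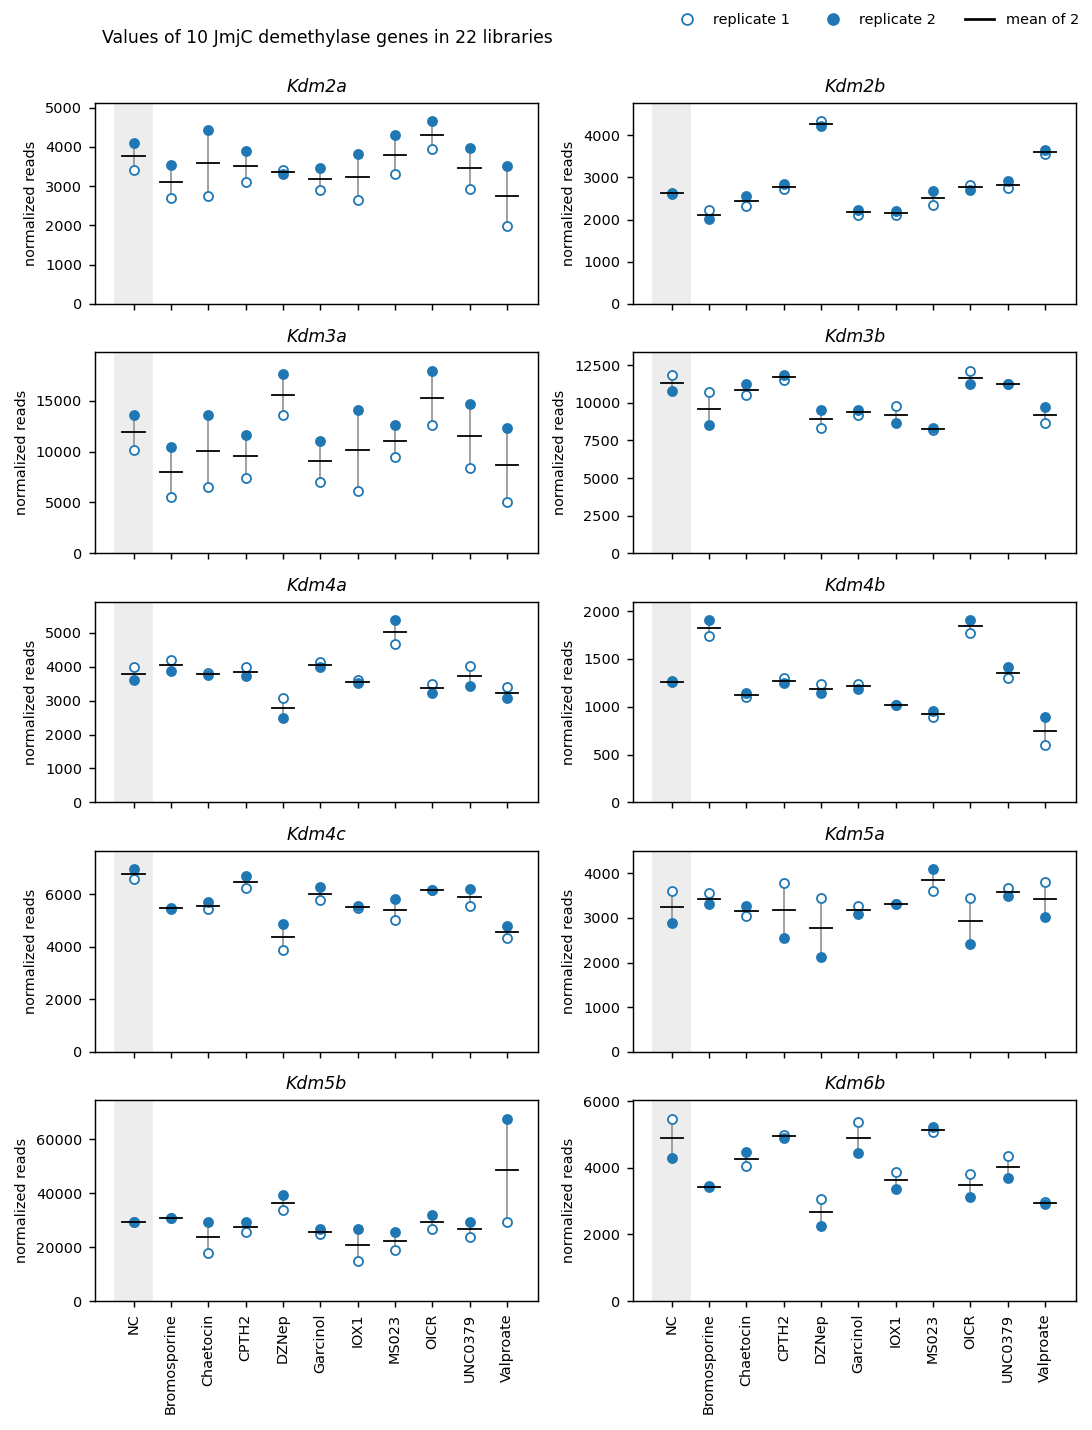
Normalized reads of each of the 10 genes in the 22 libraries, by group, with replicate 1 as an open circle, replicate 2 as a filled one, the mean of 2 as a black bar and NC shaded. The libraries of Kdm2b lay close together within each group, with DZNep (4330 and 4216) and Valproate (3561 and 3661) above the rest, while replicate 2 of Kdm3a lay above replicate 1 in all 11 groups.

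Among the H3K36 demethylases, Kdm2b rose with DZNep and with Valproate and Kdm2a did not pass with any compound. Kdm2b was 2622 and 2616 normalized reads in NC, 4330 and 4216 with DZNep and 3561 and 3661 with Valproate. Both compounds lay above every library of the other 9 groups, whose largest Kdm2b value was 2920. The rise was 1.63-fold with DZNep (log2 0.71, SE 0.09, limma adjusted p = 1.40e-04) and 1.38-fold with Valproate (log2 0.46, SE 0.09, adjusted p = 0.00562), and the upward share of all genes was 10.7% with DZNep and 5.13% with Valproate. DZNep and Valproate did not pass against each other (Valproate minus DZNep -0.24, SE 0.09, adjusted p = 0.0686). In the order of group means, UNC0379 to Valproate was the only step between neighbours that passed (0.35, SE 0.09, limma adjusted p = 0.0241). At the low end stood Bromosporine with a group mean of 2117, IOX1 with 2158 and Garcinol with 2172.

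Both Kdm2b changes kept their call with each NC or compound library left out in turn. Kdm2b lies at chr5:122870665-122989823 on the minus strand of mm10, and 627 of its exon bases overlap Rnf34 on the opposite strand. A share of 24.8% of the 31-base words of its longest annotated transcript also occurs in transcripts of other genes, on either strand. Its other transcripts were not compared. Whether the counting used strand is not stated, so some reads could be assigned to either gene. Kdm2a, the close relative of Kdm2b, lies at chr19:4314419-4398285 on the minus strand, and 0.199% of the words of its longest transcript are shared. Kdm2a was 3417 and 4106 in NC, with group means between 2746.5 in Valproate and 4297 in OICR. The ratio of Kdm2b to Kdm2a was 0.767 and 0.637 in the NC libraries, 1.27 and 1.28 in those of DZNep and 1.79 and 1.04 in those of Valproate. In reads not divided by length, Kdm2b thus went from the lower to the higher of the pair with both compounds. Per kilobase, Kdm2b was already the higher in both NC libraries (506 and 505 against 398 and 479 for Kdm2a).

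The H3K9 demethylases Kdm3a and Kdm3b behaved unlike each other. Kdm3a was 10193 and 13614 in NC, and its group means ran from 7999 with Bromosporine to 15617 with DZNep, a 1.95-fold span. No compound passed for Kdm3a, and the 2 libraries of a group lay far apart, such as 6143 and 14112 with IOX1 and 5031 and 12371 with Valproate. The SE of a Kdm3a change was 0.53 on the log2 scale, the widest of the 10 members, and its 95% interval with IOX1 reached from -1.48 to 0.80. This SE includes the difference between replicate numbers described below.

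Kdm3b fell with DZNep. It was 11860 and 10809 in NC and 8317 and 9551 with DZNep, without overlap (0.787-fold, log2 -0.35, SE 0.12, limma adjusted p = 0.0448), and 12.8% of all genes fell with DZNep. That call was lost without NC replicate 1 (adjusted p = 0.259), NC replicate 2 (adjusted p = 0.0641) or DZNep replicate 1 (adjusted p = 0.236). The lowest Kdm3b values were those of MS023, 8186 and 8317, which did not pass against NC (-0.46, SE 0.12, limma adjusted p = 0.0618). Kdm3b lies at chr18:34777047-34838660 on the plus strand, and 24.6% of its exon bases overlap the noncoding gene Gm26538 on the opposite strand. Kdm3a, at chr6:71588972-71632990 on the minus strand, has no such overlap.

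The KDM4 genes, whose products act on H3K9 and H3K36, gave 5 of the 10 passing pairs, and each of the 3 had its own pattern. Kdm4b, at chr17:56326062-56402870 on the plus strand, was 1269 and 1256 in NC, 1738 and 1907 with Bromosporine and 598 and 892 with Valproate. It rose 1.44-fold with Bromosporine (log2 0.53, SE 0.14, limma adjusted p = 0.0463), in which 1.61% of all genes rose, and it was 0.579-fold of NC with Valproate (log2 -0.79, SE 0.14, adjusted p = 0.00354), in which 5.18% of all genes fell. The Bromosporine call was lost when any 1 of its 4 libraries was left out (adjusted p from 0.127 to 0.214), and the Valproate call held without each of its own.

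With OICR, Kdm4b was 1772 and 1907, near the Bromosporine values, and did not pass (0.54, SE 0.14, limma adjusted p = 0.117). IOX1 (1021 and 1015) and MS023 (890 and 954) lay below both NC libraries and did not pass either, with adjusted p-values of 0.392 and 0.131. Between the extremes, Valproate and OICR differed by -1.33 (SE 0.14, adjusted p = 1.18e-04) and Valproate and Bromosporine by -1.32 (SE 0.14, adjusted p = 8.00e-05). Kdm4b thus had the widest span of group means among the members, 2.47-fold, from 745 with Valproate to 1839.5 with OICR.

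Kdm4a, at chr4:118136957-118180043 on the minus strand, was 3975 and 3604 in NC and 3067 and 2476 with DZNep (0.728-fold, log2 -0.46, SE 0.12, limma adjusted p = 0.0125). This fall was no longer called without NC replicate 1 (-0.39, adjusted p = 0.114) or DZNep replicate 2 (-0.30, adjusted p = 0.106). The highest values were those of MS023, 4661 and 5372, above both NC libraries without passing (0.40, SE 0.12, limma adjusted p = 0.111). MS023 and DZNep, at the ends of the order, differed by 0.86 (SE 0.12, adjusted p = 2.21e-04). With MS023 the libraries of Kdm4a lay above NC and those of Kdm4b below it, and the ratio of Kdm4b to Kdm4a was 0.191 and 0.178, against 0.319 and 0.349 in NC and 0.508 and 0.59 with OICR.

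Kdm4c, at chr4:74242497-74405860 on the plus strand, had its highest group mean in NC, 6771. It fell with both DZNep and Valproate. The 2 NC libraries read 6587 and 6955, those of DZNep 3873 and 4855 and those of Valproate 4349 and 4786, so neither compound overlapped NC. The change was 0.641-fold with DZNep (log2 -0.64, SE 0.11, limma adjusted p = 0.00112) and 0.674-fold with Valproate (log2 -0.57, SE 0.11, adjusted p = 0.00577). The DZNep call held without each NC or DZNep library, and the Valproate call was lost without Valproate replicate 1 (-0.50, adjusted p = 0.0555). In 9 of the 10 compound groups both Kdm4c libraries lay below both NC libraries, and all 9 of these comparisons rest on the same NC pair. The exception was CPTH2, at 6257 and 6686.

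Neither of the H3K4 demethylases passed with any compound. Kdm5b, the most abundant member per length, lies at chr1:134560171-134635285 on the plus strand and was 29466 in both NC libraries. That very value stood in 6 of the 22 libraries, as full-quantile normalization gives genes of equal rank the same value, and an SD of 0 here does not measure the spread between libraries. Group means ran from 20842.5 with IOX1 to 48577 with Valproate. The Valproate mean rests on replicate 2, 67688, with replicate 1 at 29466. The 2 IOX1 libraries were 14988 and 26697, and IOX1 and Valproate were the one pair of groups that passed for Kdm5b (Valproate minus IOX1 1.16, SE 0.35, limma adjusted p = 0.0394).

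Kdm5a, at chr6:120364124-120444574 on the plus strand, varied least between groups, with means from 2786 with DZNep to 3849 with MS023, a 1.38-fold span. It was 3604 and 2881 in NC, and the libraries of every compound overlapped those of NC. The interval of the Kdm5a change with IOX1, -0.46 to 0.54, leaves room for a change of that size in either direction.

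Kdm6b, whose product removes methyl groups from H3K27, fell with DZNep and Valproate. It lies at chr11:69398508-69413675 on the minus strand, with 286 exon bases shared with its antisense gene Kdm6bos. It was 5477 and 4303 in NC, 3069 and 2246 with DZNep and 2960 and 2907 with Valproate, without overlap. The change was 0.541-fold with DZNep (log2 -0.89, SE 0.16, limma adjusted p = 0.00158), the widest of all member changes that passed, and 0.604-fold with Valproate (log2 -0.73, SE 0.16, adjusted p = 0.0114). The DZNep call held without each NC or DZNep library. The Valproate call was lost without NC replicate 1 (-0.55, adjusted p = 0.122), Valproate replicate 1 (adjusted p = 0.0594) or Valproate replicate 2 (adjusted p = 0.0526). Bromosporine (3443 and 3426), OICR (3821 and 3115) and IOX1 (3865 and 3376) also lay below both NC libraries without passing. MS023 had the highest mean, 5141, and differed from DZNep by 0.97 (SE 0.16, adjusted p = 9.07e-04).

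The cells carried ESC transcripts in all libraries. All 10 ESC markers were above 0 in every library, with Pou5f1 between 25663 and 39262 and Nanog between 31970 and 123367. The 9 fibroblast markers summed to between 120 and 2023 normalized reads per library, with Dcn at 0 in all 22 and Lum at 0 in 19. The sums were 767 and 1495 in NC, 1789 and 2023 with DZNep and 1701 and 1554 with Valproate. Of the 8 fibroblast markers tested, 3 rose with DZNep (Col1a1, Thy1 and Pdgfra, 10.7% of all genes) and 3 with Valproate (Lum, Thy1 and Pdgfra, 5.13%). Lum could pass the filter of 10 normalized reads in 2 libraries only through the few libraries above 0. Its rise with Valproate is therefore not to be weighed against that share. Pdgfra is also one of the primitive endoderm markers below, so it counts in both lists. Of the 10 ESC markers, 2 rose with DZNep and 1 with Valproate, and 0 fell with either. The 6 primitive endoderm markers in the table summed to 8027 and 6422 in NC, 11402 and 7332 with DZNep and 3985 and 4482 with Valproate. Nearly all of that sum is Sparc (7573 and 6058 in NC, 3568 and 3928 with Valproate), whereas the median change of the 6 genes was 0.58 with DZNep (2 rose and 1 fell) and 0.35 with Valproate (1 rose and 1 fell). The part of these changes in the member changes with DZNep and Valproate was not tested. In bulk RNA, fewer cells of a type and less RNA per cell cannot be told apart.

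IOX1 is the compound aimed at the enzyme class itself, and the question was whether the transcripts of its targets changed. In limma 0 of the 10 members passed against NC, 5 were under an unadjusted p of 0.05 (12.4% of all genes), and 9 of 10 changes were negative. With the replicate number added to the model, 1 member passed, Kdm4c (-0.30, limma adjusted p = 0.0484). The share of all genes in that model was not computed. Negative changes numbered 10 with Chaetocin, 8 with Garcinol and 7 each with DZNep, Valproate and UNC0379. They numbered 6 each with Bromosporine and MS023 and 5 each with CPTH2 and OICR. The share of negative changes over all genes was not computed. Both IOX1 libraries lay below both NC libraries for 6 members, Kdm2b, Kdm3b, Kdm4b, Kdm4c, Kdm5b and Kdm6b, against 24.2% of all genes. With DZNep, 6 members also lay below both NC libraries, and the share of all genes that did so with DZNep was not computed. The median change of the 10 members with IOX1 was -0.30 on the log2 scale and that of all genes -0.02. Member medians of the other compounds ran from -0.41 with Valproate to 0.02 with OICR, and all share the same NC pair.

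Kdm2b was 2120 and 2196 with IOX1 (-0.28, SE 0.09, limma adjusted p = 0.223) and Kdm4c 5462 and 5550 (-0.30, SE 0.11, adjusted p = 0.293). Kdm3b was 9811 and 8633 (-0.30, adjusted p = 0.313). For these the 2 IOX1 libraries were close to each other and the fold from NC small, between 0.813 and 0.824. Kdm5b had the widest change of the members with IOX1, -0.56, with a 95% interval from -1.31 to 0.19. Kdm2a and Kdm3a turned to 0.03 and 0.26 without IOX1 replicate 1, and Kdm5a turned from 0.04 to -0.12 without NC replicate 2.

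Set against the mean of the other 9 compounds instead of NC, IOX1 had a lower Kdm2b (-0.36, SE 0.07, limma adjusted p = 0.0227), and 0.891% of all genes were lower in this comparison. This was the sole member that passed, and it was lost without either IOX1 library. That mean includes DZNep and Valproate, the groups with the highest Kdm2b. In direct comparisons of Kdm2b between IOX1 and each other compound, only these groups passed. IOX1 minus DZNep was -0.99 (SE 0.09, limma adjusted p = 1.60e-05) and Valproate minus IOX1 0.74 (SE 0.09, adjusted p = 2.04e-04). IOX1 minus Bromosporine was 0.03 (SE 0.09, adjusted p = 0.916). Kdm4c, which was below both NC libraries with IOX1, stood at 0.00 against the mean of the other compounds (SE 0.08, adjusted p = 0.994). NC was the highest group for Kdm4c. Kdm5b and Kdm4b lay at -0.53 (SE 0.26, limma adjusted p = 0.387) and -0.27 (SE 0.11, adjusted p = 0.252) and did not pass.

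**Figure D4:**
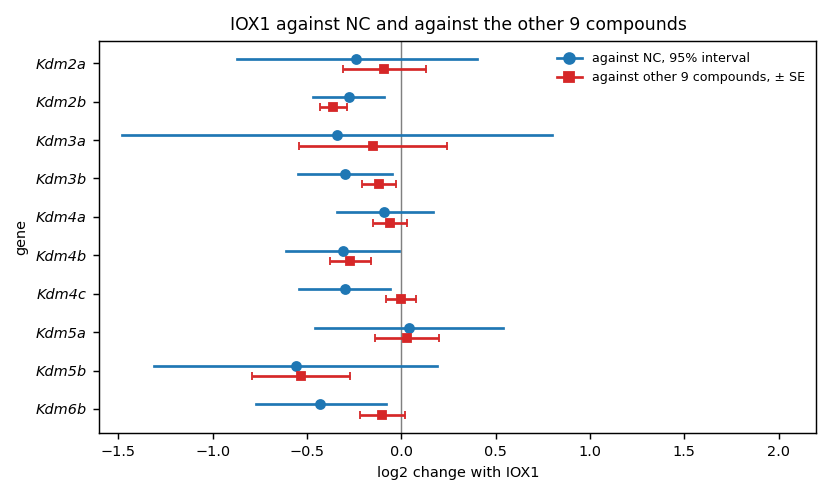
Log2 change with IOX1 of each of the 10 genes, against NC (blue, with 95% interval) and against the mean of the other 9 compounds (red, with SE). Against NC, 9 of the 10 points lie below 0 and none passed; against the other compounds Kdm2b (-0.36) passed and Kdm4c lies at 0.00.

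The 2 libraries of a group differed from each other in a way that recurred across groups. Each replicate number holds 1 library of every group, and the labels do not say what the number stands for. In a limma model of group and number, 6 members differed between the numbers, 4 higher in replicate 2 (29.9% of all genes) and 2 lower (22.8%). Kdm3a was higher in replicate 2 in all 11 groups, with means of 8350 and 13600 (log2 0.76, SE 0.09, limma adjusted p = 4.16e-05). Kdm2a was higher in 10 of 11 groups (0.39, SE 0.07, adjusted p = 3.67e-04) and Kdm5b in 9 of 11 and equal in the others (0.39, SE 0.10, adjusted p = 0.00681). Kdm4c (0.11, SE 0.03, adjusted p = 0.0149) was higher as well, while Kdm5a (-0.22, SE 0.08, adjusted p = 0.034) and Kdm6b (-0.15, SE 0.05, adjusted p = 0.0306) were lower. Kdm2b, Kdm3b, Kdm4a and Kdm4b did not pass.

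For Kdm3a, Kdm2a and Kdm5b, the number differences were of the size of the compound changes. Within replicate 1, Kdm3a with IOX1 stood at -0.73 against NC, and within replicate 2 at 0.05. The same gene with Valproate stood at -1.02 and -0.14, and Kdm5b with Valproate at 0.00 and 1.20. With DZNep, by contrast, the 2 numbers gave 0.42 and 0.37 for Kdm3a.

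**Figure D5:**
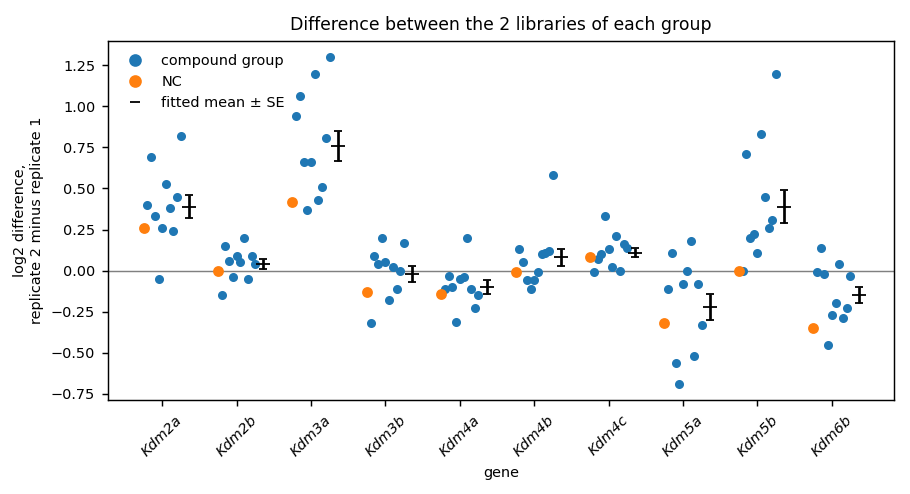
Log2 difference between replicate 2 and replicate 1 of each group for the 10 genes, with compound groups in blue, NC in orange and the fitted mean with its SE in black. All 11 points of Kdm3a lie above 0 (fitted mean 0.76), and Kdm5a and Kdm6b lie mostly below it (fitted means -0.22 and -0.15).

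The other JmjC proteins, 21 genes that include further demethylases, hydroxylases and members without known demethylase activity, were all tested. With DZNep 5 rose (10.7% of all genes) and 2 fell (12.8%). With Valproate 1 rose (5.13%) and 2 fell (5.18%), with MS023 1 fell (2.21% of all genes passed in either direction), and with IOX1 0 passed in limma (0.127%). The median change with DZNep was 0.08 for these genes and -0.04 for all genes. Hr, a nuclear-receptor corepressor with a JmjC domain, was 179 and 231 in NC and 748 and 751 with DZNep (log2 1.88, SE 0.30, adjusted p = 6.55e-04). Jmjd6 rose from 1287 and 1526 to 3060 and 2727 (1.04, SE 0.18, adjusted p = 0.00131).

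Some genes were picked from these lists after their values were seen, since the counts were small. Jarid2, a Polycomb partner with an inactive JmjC domain, rose with DZNep (1.03, adjusted p = 5.10e-04) and with Valproate (0.73, adjusted p = 0.0106), and the H3K9 demethylase Phf2 fell with both (-0.48, adjusted p = 0.0164, and -0.52, adjusted p = 0.02). Riox2 (0.62) and Jmjd7 (0.70) rose with DZNep, Kdm8 fell with DZNep (-0.46) and MS023 (-0.64), and Jmjd8 fell with Valproate (-0.70). The amine oxidase demethylases Kdm1a and Kdm1b, which use another chemistry, did not pass with any compound.

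The other 2-oxoglutarate oxygenases gave 26 tested genes of 28 listed, among them the DNA and RNA demethylases and the prolyl and lysyl hydroxylases. With IOX1, 1 of the 26 passed (0.127% of all genes). Phyh, the peroxisomal phytanoyl-CoA hydroxylase, was 1458 and 1519 in NC and 929 and 849 with IOX1 (-0.74, SE 0.09, limma adjusted p = 0.00535). Phyh was named after its values were seen, and it also fell with Bromosporine (-0.76), DZNep (-0.54), OICR (-0.54) and Valproate (-0.38). With DZNep 2 of the 26 rose (10.7% of all genes) and 8 fell (12.8%), led by the HIF prolyl hydroxylase Egln3 (670 and 482 in NC, 135 and 175 with DZNep, log2 -1.88, SE 0.29, adjusted p = 4.85e-04) and the DNA demethylase Tet3 (580 and 523 in NC, 158 and 159 with DZNep, -1.79, SE 0.33, adjusted p = 0.00181). Bromosporine and Valproate each had 2 that fell, and MS023 and OICR 1 each. The shares of all genes that passed in either direction were 5.4% with Bromosporine, 10.3% with Valproate, 2.21% with MS023 and 0.637% with OICR.

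Hypoxia-response genes were read since HIF is held in check by oxygenases of the same class, and 21 of 22 listed genes were tested. With IOX1 0 passed in limma, and the list's median change was -0.36 against -0.02 for all genes. The list's median was also negative with Garcinol (-0.26), CPTH2 (-0.24), Chaetocin (-0.21), Valproate (-0.17), MS023 (-0.12), UNC0379 (-0.12) and, as given below, DZNep. The median was positive with OICR (0.07) and Bromosporine (0.04). All of these compounds share the NC pair. With Bromosporine, MS023 and Valproate 1 rose and 1 fell each (5.4%, 2.21% and 10.3% of all genes passed in either direction). With DZNep 1 rose (10.7% of all genes) and 7 fell (12.8%), with a median of -0.44, and the widest falls were in the growth factor Vegfa (6164 and 3822 in NC, 1266 and 1253 with DZNep, log2 -1.95, SE 0.30, adjusted p = 4.77e-04) and in Egln3, already given. Vegfa also fell with Valproate (3030 and 1399, -1.24, adjusted p = 0.0178). Ero1l, an oxidase of the endoplasmic reticulum, rose with MS023 (3547 and 2478 in NC, 6785 and 6847 with MS023, 1.20, adjusted p = 0.0174), and Pfkfb3, which sets glycolytic flux, fell with Bromosporine (-1.22, adjusted p = 0.00591). Among 15 enzymes that make or use 2-oxoglutarate and succinate, 2 rose and 4 fell with DZNep (10.7% and 12.8% of all genes). Of these enzymes 1 rose with Bromosporine (1.61% of all genes) and 1 with Valproate (5.13%), and 0 passed with IOX1. D2hgdh, which turns 2-hydroxyglutarate into 2-oxoglutarate, rose with Bromosporine (337 and 452 in NC, 992 and 754 with Bromosporine, 1.15, adjusted p = 0.00233), and Idh2 (-1.23) and the succinate dehydrogenase subunit Sdhb (-1.23) fell with DZNep.

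Of the 19 tested methyltransferases that write the marks which these demethylases remove, 4 passed with DZNep (23.6% of all genes), 2 with Valproate (10.3%) and 1 with Bromosporine (5.4%), and 0 with the other compounds. Of 5 H3K36 methyltransferases, Nsd2 was 2586 and 3090 in NC and 616 and 813 with DZNep (log2 -2.00, SE 0.25, limma adjusted p = 1.06e-04). Nsd1 fell with DZNep (-0.79, adjusted p = 0.00611) and with Valproate (13103 and 12113 in NC, 5114 and 6952 with Valproate, -1.08, SE 0.18, adjusted p = 0.00214). Among 6 H3K9 methyltransferases, Setdb1 rose with DZNep (0.79), Suv39h1 rose with Bromosporine (0.73) and Ehmt2 fell with Valproate (-0.42). Of 6 H3K4 methyltransferases, Kmt2b fell with DZNep (-0.59), and neither of the 2 H3K27 methyltransferases, Ezh1 and Ezh2, passed with any compound. Of 9 partners of KDM2B in PRC1.1, 1 fell with DZNep (12.8% of all genes) and 1 rose with Bromosporine (1.61%). Pcgf1, the subunit that defines the complex, was the one that fell (785 and 727 in NC, 538 and 442 with DZNep, -0.63, SE 0.18, limma adjusted p = 0.0205). Ring1 was the one that rose (0.58, adjusted p = 0.02). Of these methyltransferases and partners, all but Nsd2 with DZNep and Nsd1 with Valproate were under a 2-fold change and were named after their values were seen.

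Across the 11 group means, members shared patterns to different degrees. The correlations that follow are descriptions over 11 groups that share a normalization, and no test was made. Among the 45 pairs of members, Kdm4a and Kdm6b were most alike (Pearson r 0.82) and Kdm2b and Kdm4a least (-0.72). Outside the family, the gene with the pattern most like that of Kdm6b was B4galnt2 (r 0.98), out of 12579 candidate genes above 0 in all libraries with a mean value of at least 100. Those most like the other members were Dcakd for Kdm5b (0.97), Sema6b for Kdm2b (0.96), Primpol for Kdm4a (0.96), Tsen34 for Kdm4c (0.96), Tbp for Kdm2a (0.94), Stil for Kdm4b (0.94), Rapgef1 for Kdm3b (0.93), Ccnb1 for Kdm3a (0.91) and 4933404O12Rik for Kdm5a (0.91). Each of these is the highest value among all the candidates.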

How the data were processed

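The deposited values are scores: read counts per gene that the authors normalized by full quantiles with EDASeq and rounded to whole numbers. Per the submitters' notes and the study's methods, reads were aligned to mm10 with Bowtie2 2.2.5 and counted with RSEM, or by another route for transposable elements. Which route gave this table is not stated, the methods do not mention the compounds, and no raw counts were used here. This step hides library depth and any change shared by most genes. The authors' group means, deposited as a separate table, were not used.

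All 22 columns matched a sample title. Genes that reached 10 in 2 or more libraries (17275 of 18487) were tested on log2(value + 1) with limma 3.58.1, run in R 4.3.3. One model of 11 group means was fitted to all 22 libraries (11 residual degrees of freedom), with variances moderated on a trend (eBayes), two-sided tests and Benjamini-Hochberg adjustment within each contrast over all genes tested. A gene passed at an adjusted p under 0.05. All changes are differences of log2(value + 1). The scripts were tested on simulated data. Alternatives were another pseudocount (10), no filter, a replicate block, a median-ratio rescaling, only the compound and NC libraries, the other 9 compounds as reference, adjustment over all 10 contrasts and each library left out. The members and the gene lists were chosen with earlier results of these data known. Named were all members, for each list the called genes (adjusted p under 0.05 with a fold over 2) with IOX1 and the 2 with the largest change per other compound, and the gene most like each member, apart from genes said to be named after their values were seen. Gene positions and transcript lengths came from GENCODE M21 on mm10.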

Additional observations from a re-analysis of the deposited data

How the results depend on the processing

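Of the 100 pairs of a member and a compound, 10 passed, and this count stayed at 10 with a pseudocount of 10, without the filter and after median-ratio rescaling, where Kdm3b with DZNep was lost (adjusted p = 0.079) and Kdm2b with Bromosporine gained. It was 7 with adjustment over all 10 contrasts, 0 when only the compound and NC libraries were fitted, 16 with the other 9 compounds as reference, and 6 to 11 with 1 library left out, the lowest without NC replicate 1. Where a library was left out, the lone sample of its group was taken to vary like the others. For these alternatives the share of all genes that passed was not computed. IOX1 against NC gave 0 members, and 1 with the other 9 compounds as reference (Kdm2b). IOX1 against the other 9 compounds gave 1, and 0 to 2 with 1 library left out, with 0 without either IOX1 library and 2 without Valproate replicate 1. For IOX1 against NC, Kdm2a turned to 0.03 and Kdm3a to 0.26 without IOX1 replicate 1 (-0.50 and -0.94 without IOX1 replicate 2), Kdm5a to -0.12 without NC replicate 2 (0.20 without NC replicate 1), and Kdm4c to 0.00 with the other 9 compounds as reference. The causes were not tested. The counts for the F test and for the replicate numbers stayed within 1.5 times their values.

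With a replicate block, 21 pairs passed in place of 10, all 10 of the first among them, and 1 member (Kdm4c) passed with IOX1 against NC. The added pairs included Kdm3b, Kdm4a, Kdm4b and Kdm4c with MS023, and Kdm4b and Kdm6b with OICR. The share of all genes that passed with the block was not computed. Among the genes that differed between replicate numbers, Kdm3a and Kdm5b then also passed the F test (8 members in place of 6), and Kdm2a passed with Valproate against NC. The main model did not use the numbers to pair the libraries. Between groups, the differences of replicate 2 minus replicate 1 correlated weakly, at 0.0535 to 0.298 over the 55 pairs of groups (median 0.196). Of these correlations 4 were at or under 0.1, and all were positive. A total of 20 of 22 libraries lay closer on average to their own number. Of all genes, 29.9% were higher in replicate 2 and 22.8% lower, and the main model leaves this difference in its spread. The unknown depth of each library, and 2 libraries per group, limit what these data can show.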
